A study of Mus musculus with 44 samples.

Results

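The AsiSI motif in Egfl7 lies at chr2:26586800-26586807 of mm10, 13.32 Mb from the bait break on the same chromosome. In high-throughput genome-wide translocation sequencing (HTGTS), DNA is amplified from a primer next to 1 known break, called the bait, and whatever sequence has been joined to that break is read as the prey. Junctions whose prey began within 500 bp of the cut base at 26586804 were taken from all 32 libraries, which gave 1141 of 148726 deposited junctions. The site was chosen by its junction number in the 6 DMSO libraries of the CK-666 experiment, while it was not among the frequently cut sites listed by the study. Junction numbers and shares in those 6 libraries are therefore a description and carry no test.

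All libraries came from C57BL/6 mouse embryonic fibroblasts (MEFs) that the labels call WT. For 26 libraries the study used AsiSI-MEFs, which express the restriction enzyme AsiSI fused to an estrogen receptor domain after 3 µg/ml doxycycline for 24 h, and which received 1 µg/ml 4-hydroxytamoxifen (4OHT) for 6 h to bring the enzyme into the nucleus. Both drugs were given to treated and control cells alike. During the 6 h with 4OHT, 6 libraries had 100 µM CK-666, an inhibitor of the ARP2/3 complex, and 6 had DMSO. Wiskostatin, an inhibitor of WASP, was given at 3 µM to 2 libraries against 2 with DMSO. Actin R62D-NLS, a polymerization-deficient actin sent to the nucleus, was introduced by transfection 24 h before AsiSI expression was induced in 2 libraries, against 2 with empty vector. NU7441, an inhibitor of the NHEJ kinase DNA-PKcs, was given at 10 µM from 1 h before 4OHT to 3 libraries against 3 with DMSO. The remaining 6 libraries came from MEFs in which Cas9 made the bait break, 3 with CK-666 and 3 with DMSO. The labels give 4OHT as a treatment of these 6 as well. The sources used here do not say whether replicate libraries came from separate animals, so p-values measure only the spread between these libraries.

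Egfl7 encodes a secreted protein of the extracellular matrix made mainly by endothelial cells, and the microRNA genes Mir126a and Mir126b lie within it. Egfl7 (ENSMUSG00000026921) spans 26580014 to 26593120 on the plus strand. Of its 19 annotated transcripts, 9 pass over the cut. In 8 of those 9 the cut is intronic, and in 1 it falls in a 5′ UTR exon from 26586689 to 26586820, so calling the site intronic leaves out that transcript. The nearest Egfl7 transcription start is 115 bp from the cut. Gm20532 (ENSMUSG00000092356, 26586639 to 26635634, plus strand) overlaps Egfl7, carries the cut in an intron and starts 165 bp away. Mir126a and Mir126b lie 4553 and 4559 bp from the cut, and Agpat2, an acyltransferase gene of phospholipid synthesis, lies 6253 bp away. The bait motif, chr2:13271317-13271324, lies in exons of all 4 Rsu1 transcripts that cover it, 10 bp from the nearest start.

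AsiSI cuts its 8-base palindrome so that each end keeps a 3′ overhang of 2 bases. Such ends can be joined directly by non-homologous end joining (NHEJ), or resected and joined through short stretches of sequence shared by both partners (microhomology, MH). The bait and both readings of the Egfl7 site are printed here because the flanks decide which joins share sequence and how the deposited alignment divides them. The motif is in capitals.
bait, plus strand, chr2:13271306-13271335: accctgtcccaGCGATCGCgcaggcgcaca
Egfl7 site, plus strand, chr2:26586789-26586818: ggcaactccggGCGATCGCagggaccggag
Egfl7 site, minus strand, same interval: ctccggtccctGCGATCGCccggagttgcc
The reads kept the bait on the plus strand, that is, its left end, but in 22 of 1128 junctions of AsiSI libraries the bait ran past its motif. A plus-strand prey that starts right of the cut is a join to the distal end of the Egfl7 break, and a minus-strand prey that starts left of it is a join to the proximal end. If both ends came from 1 chromosome, the first would delete the interval between the breaks and the second would invert it, but joins between homologs cannot be told apart from these. To the left of the motif the bait and the minus-strand reading of Egfl7 differ at 1 base and then match for 5 more, whereas the bait and the plus-strand reading do not match beyond the first mismatch. A 6-base inverted repeat, ctccgg from 26586794 to 26586799 and ccggag from 26586813 to 26586818, flanks the cut.

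The Egfl7 site took about 1% of the junctions in AsiSI libraries. In the 13 control AsiSI libraries its share of all junctions counted (chromosomes 1 to 19, X and Y, over 10 kb from the bait) was 0.941% ± 0.217 (SD, n = 13), from 0.394% to 1.24%. The 3 comparison sites on chromosome 2 took larger shares in those libraries. They were at Nup214, a nuclear pore gene (2.11% ± 0.679), at Arhgap21 (1.68% ± 0.422), and at Gm13610 (1.40% ± 0.261). By junction number the Egfl7 site ranked 10 of 358 motifs with a junction in the 13 controls and 8 of 35 on chromosome 2. In the 7 controls outside the CK-666 experiment, which the choice did not use, it ranked 9 of 348. The 3 motifs whose log2 share followed it most closely over the 26 AsiSI libraries, among 234 compared, were at Syde2 (Pearson r = 0.80), Samhd1 (0.75) and Fat4 (0.73), against a median r of 0.23. These correlations share library totals and depth and are a description.

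Deposited junctions numbered 362 to 18428 per library. The share of counted junctions within 500 bp of an AsiSI motif was 41.5% to 87.5% in AsiSI libraries and 0.539% to 6.74% in Cas9 libraries. The libraries fell into 6 sequencing runs. No read name occurred in more than 1 library. A fragment with the same junction, bait end and far end as one in another library accounted for 197 of the 1141 junctions at the site (17.3%). Such matches made up 2.08% of the smaller library's fragments, summed over pairs of libraries of the same run, and 2.21% over pairs from different runs.

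Under CK-666 the share of the Egfl7 site was near that in DMSO. The DMSO libraries held 14, 17, 53, 53, 14 and 50 junctions at the site (replicates 1 to 6) and the CK-666 libraries 13, 6, 39, 64, 5 and 29. Shares ran from 0.805% to 1.24% with DMSO (median 0.915%) and from 0.506% to 1.79% with CK-666 (median 0.928%), so the groups overlapped. The highest CK-666 value came from a library with 335 counted junctions, where 6 junctions at the site have a 95% Wilson interval of 0.823% to 3.85%. The mean log2 ratio over the 6 pairs was −0.09 ± 0.64 (SD), with 4 pairs lower and 2 higher. It was 0.22 in the 2 pairs of one run and −0.25 in the 4 pairs of the other. Over all motifs limma called 0 of 235 (0%) in this contrast, and 13 (5.53%) at an unadjusted p under 0.05. Junctions were not scaled to bait-only reads here, so these are shares within a library and say nothing of how many joins formed.

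**Figure D1:**
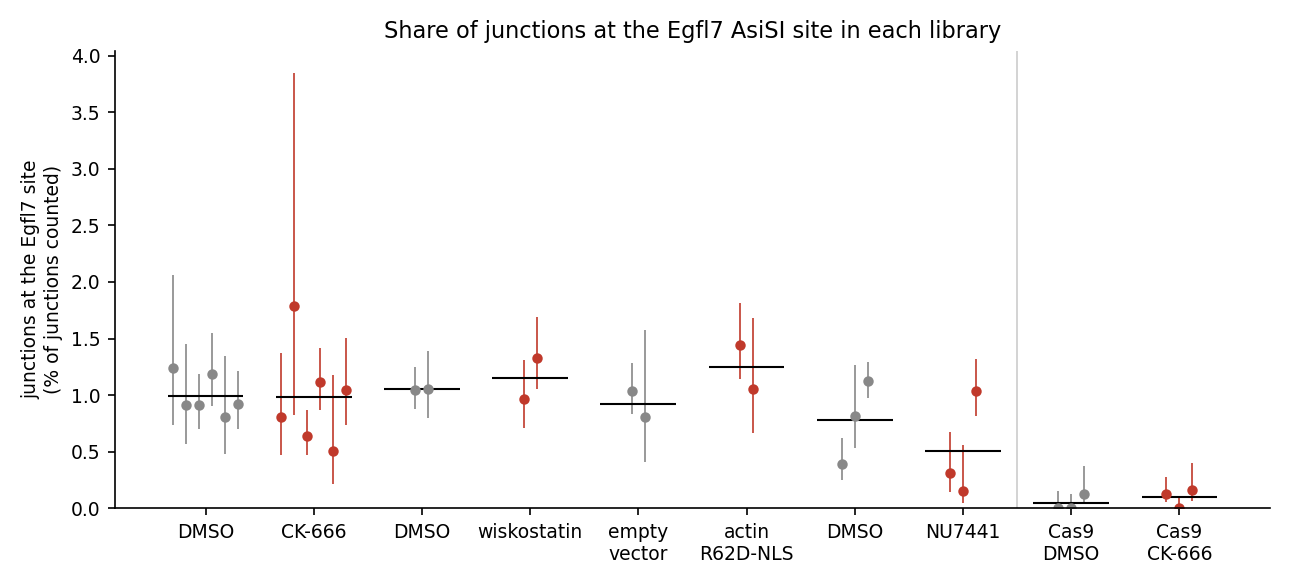
Share of junctions at the Egfl7 site (vertical axis, percent of counted junctions) in each library, with 95% Wilson intervals that cover counting error only; black lines are group means, grey points are controls and red points are treated libraries. AsiSI libraries lie between 0.154% and 1.79%, and Cas9 libraries at or under 0.157%.

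With NU7441 the site took a lower share in all 3 pairs, but the difference did not pass the test. The NU7441 libraries held 6, 2 and 66 junctions at the site, or 0.311%, 0.154% and 1.04%, and their DMSO controls held 18, 20 and 196, or 0.394%, 0.819% and 1.12%. The third library of each group lay above both others of its group, and the groups overlapped. The log2 difference was −0.83 ± 0.35 (SE; 95% interval −1.54 to −0.13; limma, unadjusted p = 0.023, adjusted p = 0.22 over 235 motifs), where the median of all motifs was 0.15 and 15 motifs lay lower. In that contrast limma called 6 of 235 motifs (2.55%) at an adjusted p under 0.05, 1 higher (0.426%) and 5 lower (2.13%), and the Egfl7 site was not among them. It was among the 44 motifs (18.7%) with an unadjusted p under 0.05. Without pair 2, whose treated library held 2 junctions at the site, the difference was −0.18. Pairs 1 and 2 shared a run and had a mean log2 ratio of −1.20, and pair 3, from another run, had −0.10.

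Wiskostatin and actin R62D-NLS gave no detectable difference in share. Wiskostatin libraries held 41 and 67 junctions at the site (0.965% and 1.33%) against 125 and 50 (1.05% and 1.06%), a log2 difference of 0.11 (95% interval −0.75 to 0.98; limma adjusted p = 0.99). Actin R62D-NLS libraries held 72 and 17 (1.44% and 1.06%) against 83 and 8 with empty vector (1.03% and 0.802%), a log2 difference of 0.42 (95% interval −0.45 to 1.28; limma adjusted p = 0.99). The actin R62D-NLS value was higher in both pairs, and the wiskostatin value in 1 of 2. With intervals this wide, equal shares were not shown. No motif was called in either contrast (limma, 0 of 235 each, 0%). At an unadjusted p under 0.05 limma gave 6 motifs (2.55%) with wiskostatin and 12 (5.11%) with actin R62D-NLS.

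Prey on either strand were about equally frequent. Over the 26 AsiSI libraries 580 of 1128 prey were on the plus strand and 548 on the minus strand. Of these, 74 plus-strand and 57 minus-strand prey started beyond the far edge of the motif and read back toward the cut, so their strand does not stand for the end joined. Without them 506 prey were on the plus strand and 491 on the minus strand, and the plus-strand share in the 13 controls was 47.3% ± 8.95 (SD). With all prey, the plus-strand share in the 13 controls was 49.5% ± 6.95 (SD, n = 13), against 51.0% ± 0.945 at all other AsiSI sites, a difference of −1.48 points (exact sign-flip test, 2-sided, adjusted p = 0.44). It was higher than at other sites in 7 of the 13 controls and lower in 6. The plus-strand share ran from 26.8% in wiskostatin replicate 1 (11 of 41) to 66.7% in NU7441 replicate 1 (4 of 6). In the library with most junctions at the site, DMSO replicate 3 of the NU7441 experiment, it was 61.2% (120 of 196). Wiskostatin replicate 2 had 52.2%, and both wiskostatin controls had 52.0%. With CK-666 the mean difference was 5.82 ± 13.7 points (SD, 6 pairs; exact sign-flip test, adjusted p = 0.41), but 0.46 over the 4 pairs with at least 10 junctions in each library and 2.13 without pair 5, whose treated library held 5. With NU7441 it was −0.69 ± 10.3 points (SD, 3 pairs), where the smallest p that 3 pairs allow is 0.25.

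Prey began close to the cut. The median distance of the deposited junction from the cut base was 6 bp, 67.9% lay within 10 bp, 88.7% within 50 bp and 96.7% within 100 bp. The farthest junctions inside the 500 bp window were 495 and 476 bp away and the nearest outside it 552 and 563 bp. Beyond the window, 39 junctions lay from 500 bp to 10 kb. On the plus strand the overhang bases are 26586803 and 26586804. Prey that started at 26586803, with both overhang bases, numbered 64, those at 26586804 numbered 52, and those at 26586805, with neither, numbered 61. On the minus strand the matching positions 26586804, 26586803 and 26586802 held 55, 58 and 62. The largest single positions were 26586800 on the plus strand and 26586813 on the minus strand, with 89 junctions each, both seen in all 26 AsiSI libraries.

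The plus-strand position is the left edge of the motif, but 26586813 lies 6 bases beyond its right edge. There the deposited alignment passed over the mismatch described above and took the next 5 bases as prey, so that a join at the motif appears as an overlap of 14 nt with 1 mismatch. Of 548 minus-strand junctions, 54 had a deposited overlap of 14 nt. The ends were therefore also derived by exact matching of each read to the genome. By that measure joins with an overlap of exactly 8 nt numbered 66 on the plus strand and 64 on the minus strand, and junctions with an overlap of 12 nt or more fell from 90 to 8 of 1128. These 66 and 64 junctions held the whole motif 1 time, with intact bait on one side and intact Egfl7 on the other.
restored motif, distal end (66 junctions): accctgtcccaGCGATCGCagggaccggag
restored motif, proximal end (64 junctions): accctgtcccaGCGATCGCccggagttgcc
Both forms were found in all 26 AsiSI libraries and were the 2 most frequent junctions at the site.

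**Figure D2:**
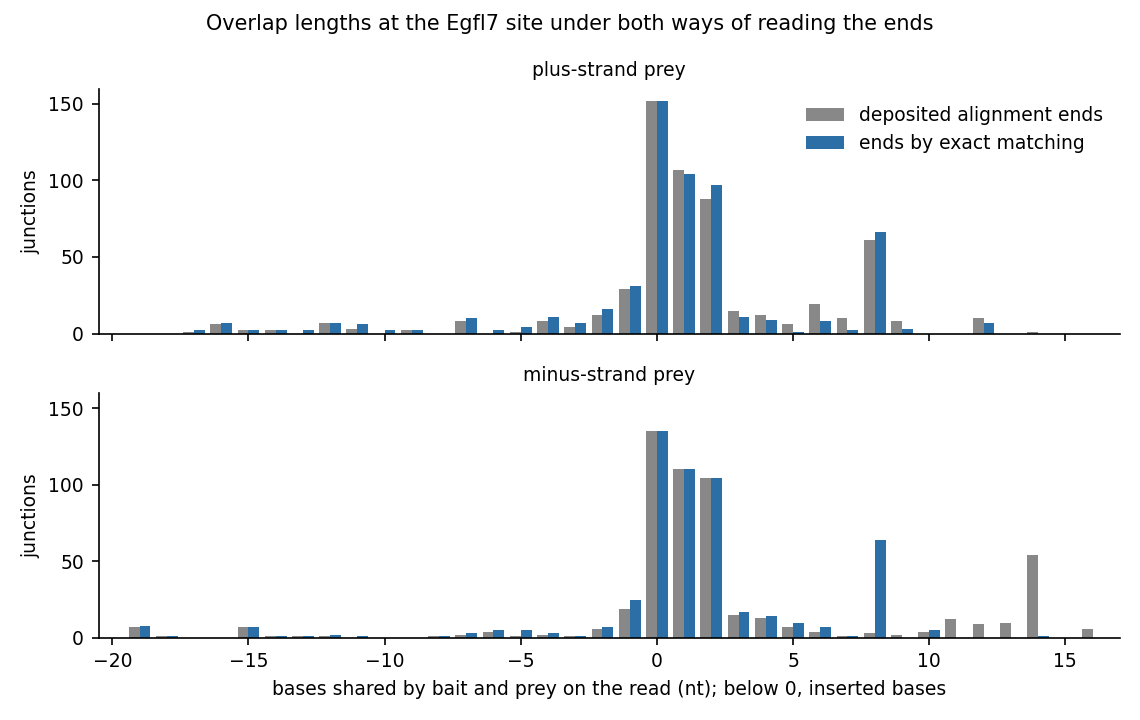
Number of junctions (vertical axis) by the length in nt of the overlap between bait and prey (horizontal axis; values below 0 are inserted bases), for 580 plus-strand and 548 minus-strand junctions of the 26 AsiSI libraries. Grey bars use the deposited alignment ends and blue bars exact matching; the grey minus-strand peak at 14 nt (54 junctions) becomes a blue peak at 8 nt (64 junctions), beside 66 on the plus strand.

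**Figure D3:**
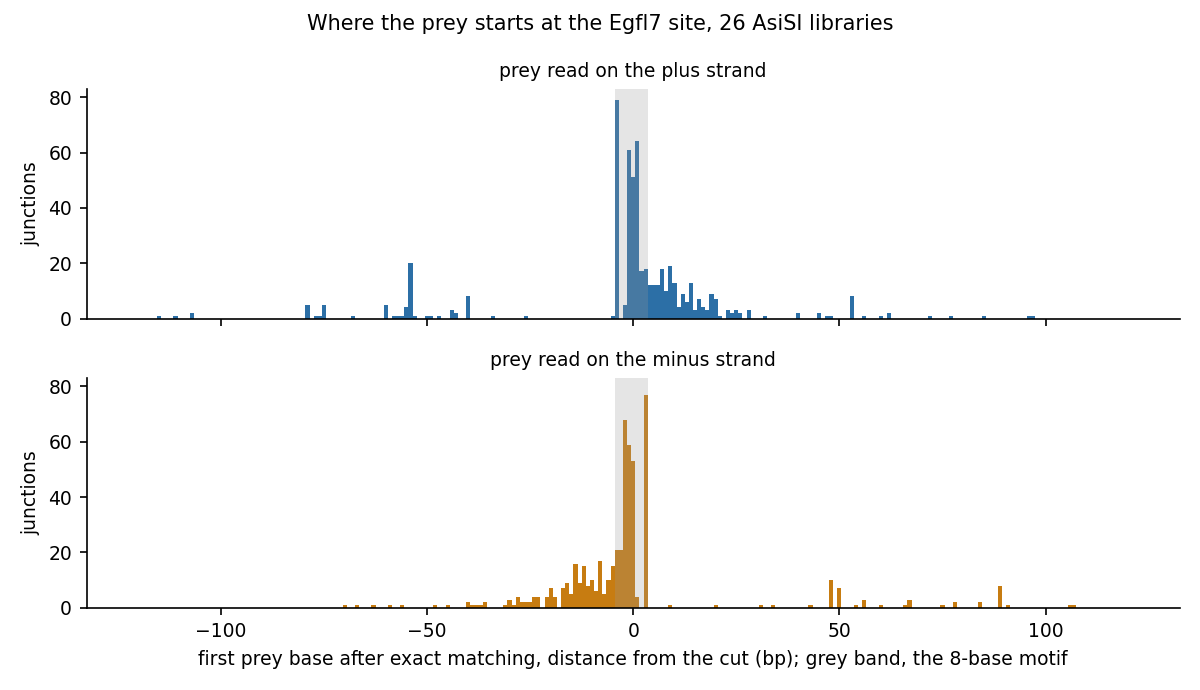
Number of junctions (vertical axis) by the first prey base after exact matching, as distance from the cut in bp (horizontal axis), within 120 bp of the cut, for plus-strand and minus-strand prey of the 26 AsiSI libraries; the grey band is the motif. Prey starts pile up in and beside the motif, and a separate plus-strand peak of 20 junctions stands 50 bp left of the motif.

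Trimming past the overhang was about equally frequent on both strands. By exact matching, 474 of 1128 prey (42.0%) had lost bases past the overhang, with a median of 9 bases past it. The share was 42.2% for the plus strand and 41.8% for the minus strand, and the longest loss was 494 bases. In 390 junctions (34.6%) the matched bait ended before its motif. Its last base lay a median of 6 positions before the first motif base, where 1 position means that only motif bases were lost. In 22 junctions the matched bait ran past its motif. Of these, 7 in 6 libraries reached 13271360 with an overlap of 12 nt and so read across the bait cut. Apart from the restored motifs, overlaps of 0, 1 and 2 nt were the most frequent by the deposited ends. Plus-strand junctions held 152, 107 and 88 of them, and minus-strand junctions 135, 110 and 104. Insertions were present in 150 junctions by the deposited ends and in 200 by exact matching, of which 56 were of 1 base and 67 of 10 bases or more.

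A set of 131 junctions (11.6%) in 22 AsiSI libraries had prey that began 10 bp or more beyond the far edge of the motif and read back toward the cut. Their starts lay 17 to 331 bp from the motif, with a median of 52 bp. In 85 of them the fragment stopped before the motif, in 43 it ended at or inside the motif, and in 3 it ran past it, so nearly all held sequence from 1 side of the break only. The most frequent start was 26586750 on the plus strand, 50 bp left of the motif, with 20 junctions in 11 libraries of 4 runs, and 15 of these fragments ended within 1 base of the left edge of the motif. In this set 59 junctions had 4 or more inserted bases. In 40 of these 59, from 18 libraries, the insert was an exact copy of the bases beside the motif on the strand opposite to the prey, 6 to 26 bases long. All 40 kept the whole motif on the bait side, and none of the 59 inserts was a copy of the bases at the other edge of the motif. The reads thus ran from the bait through a restored motif into one Egfl7 end, and from there into the same side of the break on the other strand. The most frequent example of each strand is printed with the copied bases in capitals.
plus-strand prey at 26586764 (8 junctions, 8 libraries): gcgatcgcCCGGAGTtgccgagatcggggg
minus-strand prey at 26586854 (7 junctions, 6 libraries): gcgatcgcAGGGACCGGAGAGGTaagcgcg
The first insert matches the minus-strand reading of the site printed above, and the second matches the plus-strand reading. Prey read back in this way made up 13.3% ± 8.26 of junctions at the Egfl7 site in the 13 controls and 14.02% ± 4.50 at all other AsiSI sites. Over the pooled junctions of the 13 controls they made up 9.70% at Egfl7 (68 of 701), 23.1% at Arhgap21, 7.44% at Nup214 and 4.93% at Gm13610, and these differences were not tested.

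Whole-motif junctions and overlaps of 6 nt or more were less frequent at the Egfl7 site than in the pool of other AsiSI sites. Whole-motif junctions are those whose prey began at or beyond the far edge of the motif, so prey that read back toward the cut are included. By exact matching, 154 of 701 pooled control junctions at the site were in this class. Of these, 70 were restored motifs and 70 began beyond that edge. These features were not used to pick the site, but its junction number was. In the controls it ranked 10 of 358 motifs by that number, so most sites of the pool held fewer junctions. At the Egfl7 site itself, restored motifs were 25% over AsiSI libraries with under 20 junctions there and 9.33% over those with 50 or more. Those 2 values compare libraries at 1 site, not sites with few or many junctions. The part of junction number in the differences from other sites was not tested. In the 13 controls whole-motif junctions made up 30.1% ± 12.4 at the site and 45.4% ± 13.7 at other sites. The difference was −15.3 ± 7.74 points, lower in 13 of 13 libraries (exact sign-flip test, 2-sided, p = 0.00024, the smallest that 13 libraries can give, and adjusted p = 0.00073 over 6 features). Overlaps of 6 nt or more made up 19.95% ± 7.12 against 33.7% ± 11.2, a difference of −13.7 ± 7.87 points, also lower in 13 of 13 (exact test, adjusted p = 0.00073). Blunt joins were more frequent, 26.4% ± 7.88 against 19.98% ± 6.07 (6.41 ± 6.33 points, higher in 11 of 13; exact test, adjusted p = 0.010). Overlaps of 1 to 5 nt (38.7% against 35.1%) and insertions (14.98% against 11.2%) did not pass (exact test, adjusted p = 0.21 and 0.15). Within each of the 6 runs the mean difference was from −25.4 to −9.21 points for whole-motif junctions and from −26.2 to −5.77 for overlaps of 6 nt or more. For blunt joins it was above 0 in 5 runs and −6.39 in a run that holds 1 control.

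Against other AsiSI sites of chromosome 2 alone, only whole-motif junctions still differed (−7.44 points, exact test, adjusted p = 0.019). Overlaps of 6 nt or more differed by −2.82 points and blunt joins by 3.12, both with an adjusted p of 0.22 in the exact test. Among 141 motifs with at least 100 junctions in the 13 controls, 9 had a lower share of whole-motif junctions than the Egfl7 site. In 13 the share of overlaps of 6 nt or more was lower, and in 18 that of blunt joins was higher. Arhgap21 (8.46%) and Nup214 (14.02%) had fewer overlaps of 6 nt or more than the Egfl7 site (16.5% of 701 pooled junctions), and Gm13610 had more (21.2%). Low values were thus also found at other sites of the bait chromosome. Restored motifs made up 9.99% of pooled control junctions at Egfl7, 7.34% at Gm13610, 3.32% at Nup214 and 3.07% at Arhgap21. As means over the 13 controls they made up 13.7% ± 5.70 at Egfl7 and 14.9% ± 5.61 at all other AsiSI sites. Those differences were not tested. A join was counted as restored only if matched bait and matched prey both stopped at the motif edge. Where a site's flank goes on matching past that edge, the same join was not counted. At Egfl7 the bases next to the motif differ from the bait in both readings. Values at other sites can therefore be too low, and they do not rank the sites.

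**Figure D4:**
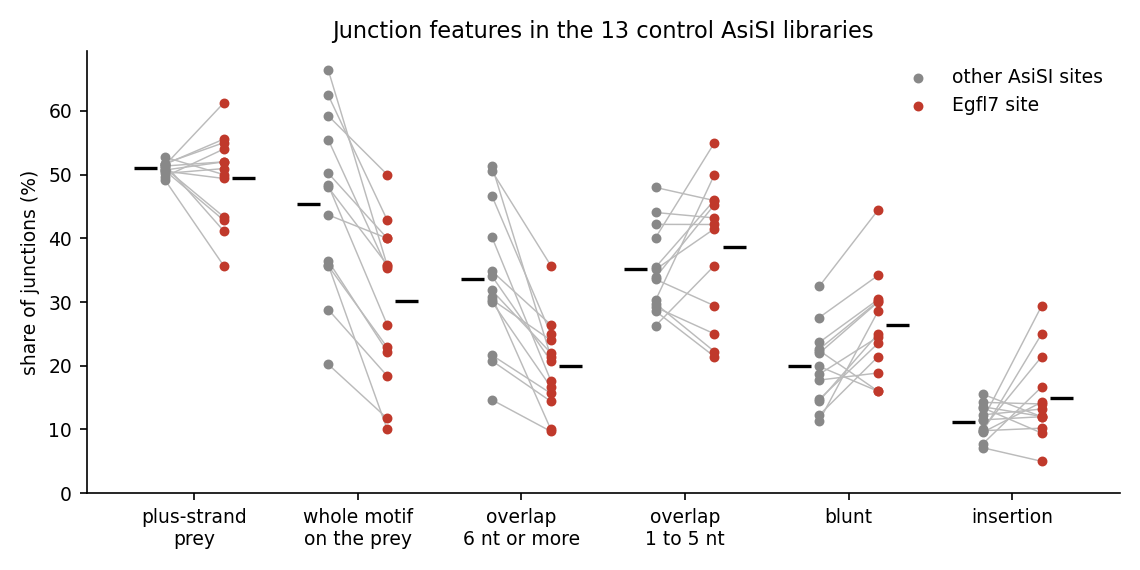
Share of junctions (vertical axis, percent) with each of 6 features in the 13 control AsiSI libraries, at all other AsiSI sites pooled (grey) and at the Egfl7 site (red); lines join values of a library and black bars are means. The whole-motif class holds prey that began at or beyond the far edge of the motif, with those that read back toward the cut. This class and overlaps of 6 nt or more are lower at the Egfl7 site in all 13 libraries.

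With CK-666 overlaps of 6 nt or more were more frequent at the Egfl7 site in all 6 pairs, without passing the adjusted test. Their share ran from 17.6% to 35.7% with DMSO (median 22.7%) and from 25.6% to 60% with CK-666 (median 37.1%), so the groups overlapped. The mean difference was 15.3 ± 13.3 points (SD, 6 pairs; exact sign-flip test, 2-sided, p = 0.031, the smallest that 6 pairs can give; adjusted p = 0.19 over 6 features). By exact matching it was higher in 5 of 6 pairs (17.6 ± 18.98 points, exact test, p = 0.094). At all other AsiSI sites the share was 45.5% ± 11.7 with CK-666 and 40.2% ± 8.87 with DMSO, and that difference was not tested. At the Egfl7 site the mean difference was 28.5 points in the run with 2 pairs and 8.62 in the run with 4. Whole-motif junctions, with prey that read back toward the cut included, were 10.5 ± 7.70 points more frequent (5 of 6 pairs, exact test, adjusted p = 0.19). Blunt joins differed by −8.32 ± 11.9 points, overlaps of 1 to 5 nt by −5.80 ± 8.55 and insertions by −1.13 ± 15.4 (exact test, adjusted p = 0.25, 0.28 and 0.91).

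The number of junctions in a library moved with these shares. The CK-666 libraries with the 3 highest shares of overlaps of 6 nt or more (60%, 50% and 46.2%) held 5, 6 and 13 junctions at the site, the fewest of the group. Over the 11 AsiSI libraries with under 20 junctions at the site, 30 of 120 (25%) were restored motifs, and over the 11 libraries with 50 or more, 82 of 879 (9.33%). Between 2 and 11 restored motifs were found per library, while the total at the site ranged from 2 to 196. This was not particular to the Egfl7 site. At all other AsiSI sites restored motifs made up 28.3% in the AsiSI library with fewest deposited junctions (362) and 5.84% in that with most (18428). At the Egfl7 site the CK-666 difference in overlaps of 6 nt or more was 8.73 points in the 4 pairs with at least 10 junctions in each library. The part of library size in the CK-666 values was not tested beyond this.

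**Figure D5:**
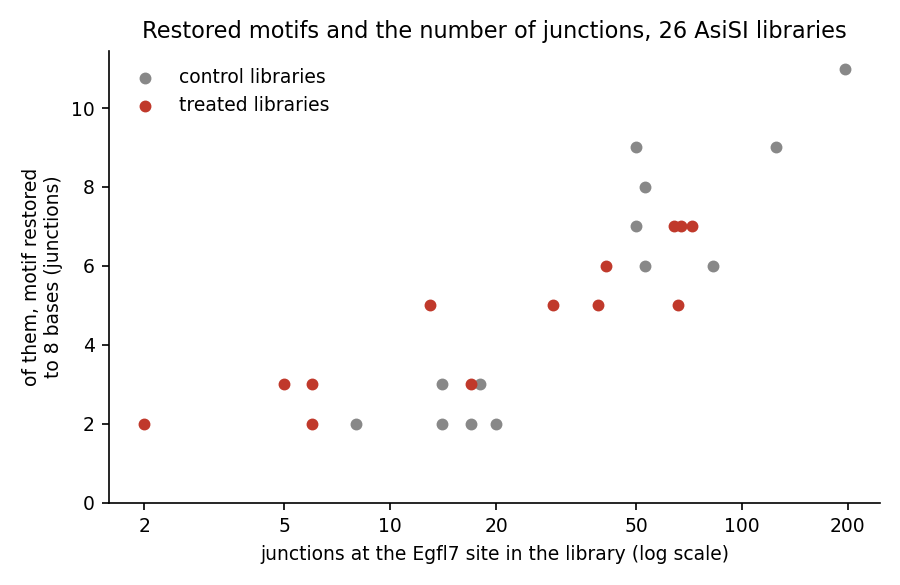
Number of junctions with the motif restored (vertical axis) against all junctions at the Egfl7 site (horizontal axis, log scale) in each of the 26 AsiSI libraries; grey points are controls and red points are treated. Restored motifs rise from 2 to 11 while all junctions rise from 2 to 196, so their share is highest in the small libraries.

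For NU7441 the 3 pairs cannot reach a p under 0.25, and values are given by pair. Overlaps of 6 nt or more made up 33.3%, 100% and 13.6% of 6, 2 and 66 junctions with NU7441, against 16.7%, 10.0% and 9.69% of 18, 20 and 196 with DMSO. The share was higher in all 3 pairs, but the first 2 treated values rest on 2 junctions each. At all other AsiSI sites it was also higher in these pairs, 56.1%, 65.2% and 22.3% with NU7441 against 30.1%, 30.8% and 14.6% with DMSO. In the pair with most junctions the difference was 3.94 points. Blunt joins in that pair were 15.2% with NU7441 and 34.2% with DMSO, and overlaps of 1 to 5 nt were 60.6% and 45.9%.

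In the Cas9 libraries, where no AsiSI cut was part of the design, 13 junctions fell at the Egfl7 site. The labels list 4OHT for these libraries too, and the study's methods name their cells as WT MEFs, apart from AsiSI-MEFs. CK-666 replicates 1 and 3 held 6 and 4 and DMSO replicate 3 held 3. The other 3 libraries had 0 of 4069, 2536 and 3154 counted junctions, which allows shares of up to 0.0737%, 0.118% and 0.0951%. Of the 13, 7 were restored motifs, and 12 had the same strand, bait end, prey start and insert as a junction of an AsiSI library. For 9 of these 12 such a junction was in 1 of the 2 AsiSI libraries of the same run. The 3 libraries with junctions at the site had 4.55% to 6.74% of their junctions within 500 bp of an AsiSI motif, and the other 3 had 0.539% to 1.26%. The source of these junctions was not tested.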

How the data were processed

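Reads came from a MiSeq. The authors mapped them to mm10 by BWA (Burrows–Wheeler Aligner), and kept those passing the default filters of an HTGTS pipeline, which include one for duplicates. Its version is not given in the sources used here. The deposited tables hold 1 entry per junction and 1 library each, with positions and strands of bait and prey and no normalized values, so counts of junctions were made here from deposited positions. How duplicate removal affects junctions that recur at 1 position was not tested. Bait-only reads were not used. The 12 Hi-C samples were left out. The site, the named genes and the lists were chosen with earlier results of these data known.

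AsiSI motifs (1109) and annotation came from GRCm38.p6 and GENCODE M21. Named genes were the hosts of the site and genes within 20 kb, Rsu1, 3 comparison sites (leading sites nearest on chromosome 2), and the 3 motifs with the most similar log2 share. Overlap is the number of read bases shared by bait and prey alignments. In exact matching, a mismatch was passed only if the next 6 bases matched. Shares per motif with at least 50 junctions (235 motifs) were compared on the log2 scale (0.5 added to each number of junctions and 1 to each total), by limma 3.58.1 in R 4.3.3 with the pair as a block, over the 26 AsiSI libraries. Pairs of a treated library and its control were formed by replicate number, as in the study's source data, and each pair shared a sequencing run. In simulated data for NU7441 against DMSO, 14 of 47 motifs changed by 4-fold were called among 232, with 0 false calls, and 8 of 12 of those with 500 junctions or more. Features were compared by exact sign-flip tests with Benjamini-Hochberg adjustment, in Python 3.11.15 with scipy 1.17.1. Other windows, totals, pseudocounts, filters, overlap classes, read ends and left-out libraries were tried. Intervals are 95% Wilson intervals, and limits for a count of 0 use 3 counts; both cover counting error only.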

Additional observations from a re-analysis of the deposited data

Results flagged for a closer look

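Junctions at the Egfl7 site also appeared in libraries outside the AsiSI comparisons. Over the 6 Cas9 libraries they made up 0.067% of 19414 counted junctions (13 junctions). The limit for this flag was 0.0155%, which is 3 counts over that total. Passing it shows only that the count was above 3, not a level above background. As a share of junctions within 500 bp of an AsiSI motif they were 1.97% of 659, against 1.44% in the AsiSI libraries. As means over libraries the order was the reverse, 1.22% ± 1.37 in the 6 Cas9 libraries, 3 of them at 0, and 1.29% ± 0.407 in the 26 AsiSI libraries. None of 15 sets of values in the groups of 6 libraries or pairs held a sample far from the others by Dixon's criterion.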

How the results depend on the processing

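Results numbered 22, and 260 of their 275 values under other settings kept their direction and their side of the threshold (or, where no test was made, moved by less than 1 SD). The NU7441 features could not pass the threshold under any setting, nor could the CK-666 features with 1 pair left out. For those values only the direction could change. With a 50 bp window the wiskostatin difference in share was −0.026, the CK-666 difference in insertions 0.15 points, and the excess of insertions at the site 5.15 points and past the threshold. Counting overlaps from 4 nt as long gave an excess of overlaps of 1 to 3 nt of 5.87 points, past the threshold. Against chromosome 2 sites only, long overlaps differed by −2.82, overlaps of 1 to 5 nt by −1.51 and blunt joins by 3.12 points. The CK-666 difference in insertions was 4.23 points with at least 10 junctions at the site and 1.79 with ends by exact matching, a setting added after the data were seen. Counting each distinct junction 1 time turned the NU7441 difference in plus-strand prey to 0.98 points. Leaving out 1 pair gave −0.11 to 0.33 for wiskostatin, −4.07 to 4.53 points for CK-666 insertions, −6.60 to 3.06 for NU7441 plus-strand prey, −24.5 to 1.595 for NU7441 blunt joins, −1.20 to −0.18 for NU7441 and −0.32 to 0.01 for CK-666 shares. The cause of these changes was not tested.

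The NU7441 share kept an adjusted p from 0.089 to 0.78 in limma over all settings. Without the replicate block its difference was −0.83 with an adjusted p of 0.34, and limma called 0 motifs in place of 6. Limma called 18 motifs with only junctions near AsiSI motifs as the total, 10 of 377 with no filter, and 2 without pair 2. Without the pairing, CK-666 long overlaps differed by 15.3 points with an adjusted p of 0.0996 in an exact label permutation test. The block changed no call at the Egfl7 site. Deviations from group means correlated at 0.0089 to 0.29 between same-numbered libraries, and not above 0.1 in every pair. For NU7441 features, at least 10 junctions at the site left 1 pair, so no value was given. Small libraries limit every value, since 11 AsiSI libraries held under 20 junctions at the site.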
